A study of Cavia porcellus with 72 samples.

Results

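The cytosolic ribosomal protein genes were followed in hippocampal mRNA of juvenile female guinea pigs over 3 generations. Members were taken by symbol alone, as the rows named RPS or RPL with a number, together with the names used for the stalk proteins and for RPSA. The rule found 51 genes, and each generation's table held 50 of them among 11651 genes in F1, 11716 in F2 and 11663 in F3. Of the 51, 20 encode proteins of the small subunit, 26 encode proteins of the large subunit, and 5 are paralogs named after them (RPL3L, RPL10L, RPL22L1, RPL26L1 and RPS27L). RPL10L was listed in F1 and F3 only and RPS27L in F2 only, which left 49 members shared by the 3 tables. All 50 members of each table passed the filter on low counts. 12 further genes that had been chosen by role, among them RPSA, RPS6, RPL5, RPL10 and the stalk proteins RPLP0, RPLP1 and RPLP2, were not analysed here.

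Ribosomal proteins join ribosomal RNA in the nucleolus to form the small subunit, which reads the mRNA, and the large subunit, which makes the peptide bond. Their mRNAs carry a stretch of pyrimidines at the 5′ end, through which the mTOR pathway and LARP1 set their translation, and cells usually make the proteins in balanced amounts. Ribosomal proteins that are left outside the ribosome are degraded, and a few of them bind the ubiquitin ligase MDM2. In the hippocampus, as in other brain tissue, ribosomes act in cell bodies and in the processes of neurons and glia.

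Dunkin-Hartley dams of the F0 generation had been given saline (control) or the synthetic glucocorticoid (sGC) betamethasone, in 3 courses of 1 mg/kg from gestational day 40 to day 61. F1 females were exposed in utero, whereas F2 and F3 females descended from F1 and F2 males that had been mated with females from outside the experiment, and every female studied had a different mother. Right hippocampus was taken at postnatal day 40 from F1, F2 and F3 animals, and polyA-selected libraries were made from 6 control and 5 sGC animals in F1, 6 and 6 in F2, and 6 and 7 in F3. Exposure thus differs in kind between generations, and no genetic change was made in any group.

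Libraries held between 13507449 and 19767033 reads counted on genes. Levels are given as counts per 1e+06 reads (CPM) scaled by TMM, a method that centres the bulk of genes between libraries, and changes as the log2 ratio of sGC over control (log2 fold change) from edgeR's quasi-likelihood test, adjusted over all genes tested by the Benjamini-Hochberg method with a threshold of 0.05. The number of reads counted on a gene grows with its transcript length, so levels of different genes are not compared. All 11 hippocampal neuron markers and all 9 astrocyte markers were tested in each generation. Oligodendrocyte markers summed to between 5911 and 8870 CPM in F2 libraries, where 9 were tested. In F1 and F3 libraries, where 8 were tested, they summed to between 1582 and 2641 CPM. The sums cover different genes, so they do not compare oligodendrocyte content between generations. Levels were compared within a generation only. In libraries of whole tissue, fewer cells of a type and less RNA per cell cannot be told apart. Libraries numbered 32 to 36 in the labels (F1 sGC replicates 4 and 5, F2 sGC replicate 6, and F3 sGC replicates 5 and 6) are all sGC, with numbers far from the other libraries of F1 and F2 and just past those of F3, and results were also computed without them.

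The genes of this family were higher in F3 sGC animals, by a median of 0.20 on the log2 scale (1.15-fold), with 32 of 50 members past the threshold and all 32 higher. In F2, 46 of 50 members had values above control by a median of 0.08 and none passed the threshold. In F1, the median was 0.02, none passed, and the value depended on 1 sGC library. RPS4X had values below control in all 3 generations, in F2 by less than its standard error.

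The summed level of the 50 members lay between 7059 and 8538 CPM (median 7998) in the 6 F3 control libraries and between 8570 and 9901 CPM (median 9100) in the 7 F3 sGC libraries. Every F3 sGC library was above every F3 control library, although the highest control and the lowest sGC library were close. The means were 7934 ± 482 CPM (SD, n = 6) and 9090 ± 477 CPM (SD, n = 7). As a share of all reads counted, the members took 0.703% to 0.863% in control and 0.865% to 0.989% in sGC libraries. In F2 the sums ranged from 7242 to 7715 CPM (median 7415) in control and from 7362 to 8339 CPM (median 7747) in sGC libraries, which overlapped. In F1 the 6 control libraries held 7820 to 9305 CPM (median 8105). The 5 F1 sGC libraries held 7442, 7612, 7346, 10916 and 8532 CPM in the order of their replicate numbers. sGC replicate 4 was thus above every other F1 library, while replicates 1 to 3 were below all 6 controls.

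**Figure D1:**
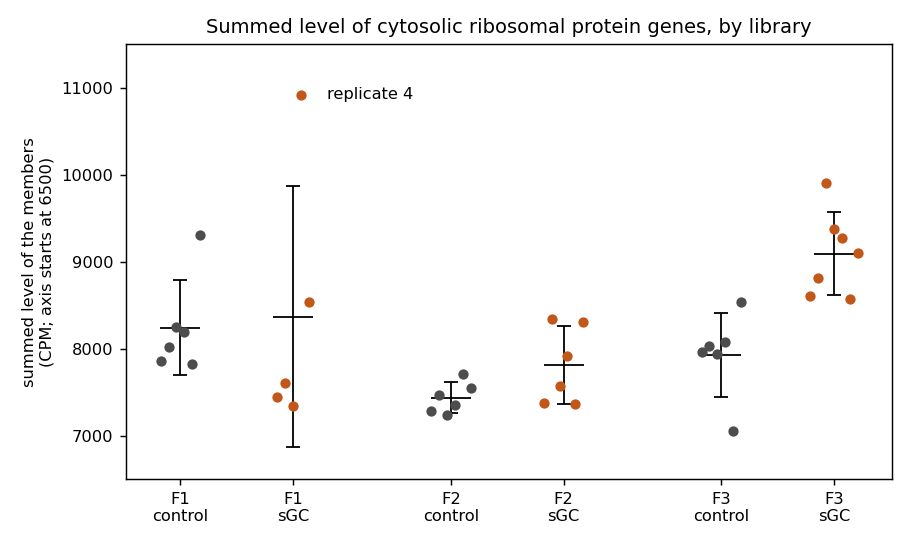
Summed level of the ribosomal protein genes (CPM, scaled by TMM) in each library, by generation and treatment. Points are libraries, horizontal marks are group means and bars are 1 SD. The 7 F3 sGC libraries (8570 to 9901 CPM) sit above the 6 F3 controls (7059 to 8538 CPM), F2 groups overlap, and F1 sGC replicate 4 (10916 CPM) stands apart from its group.

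The members moved together from library to library, within control groups as well. In F3 control replicate 5, 1 of 50 members was above the control mean of its generation, and in F3 control replicate 6, 48 were. Among F3 sGC libraries, 44 to 49 of the 50 members were above the control mean. In F2 sGC libraries the number ran from 18 in replicate 5 to 47 in replicates 2, 4 and 6, and in F2 control libraries from 7 to 43. In F1 sGC replicates 1, 2 and 3 it was 1, 2 and 0, in replicate 4 it was 49 and in replicate 5 it was 37. F1 control replicate 6, with 49 members above the mean, was the highest of its group, whereas the other 5 F1 controls had between 6 and 23. Members of 1 library share its scaling and its tissue piece and are not independent measurements.

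**Figure D2:**
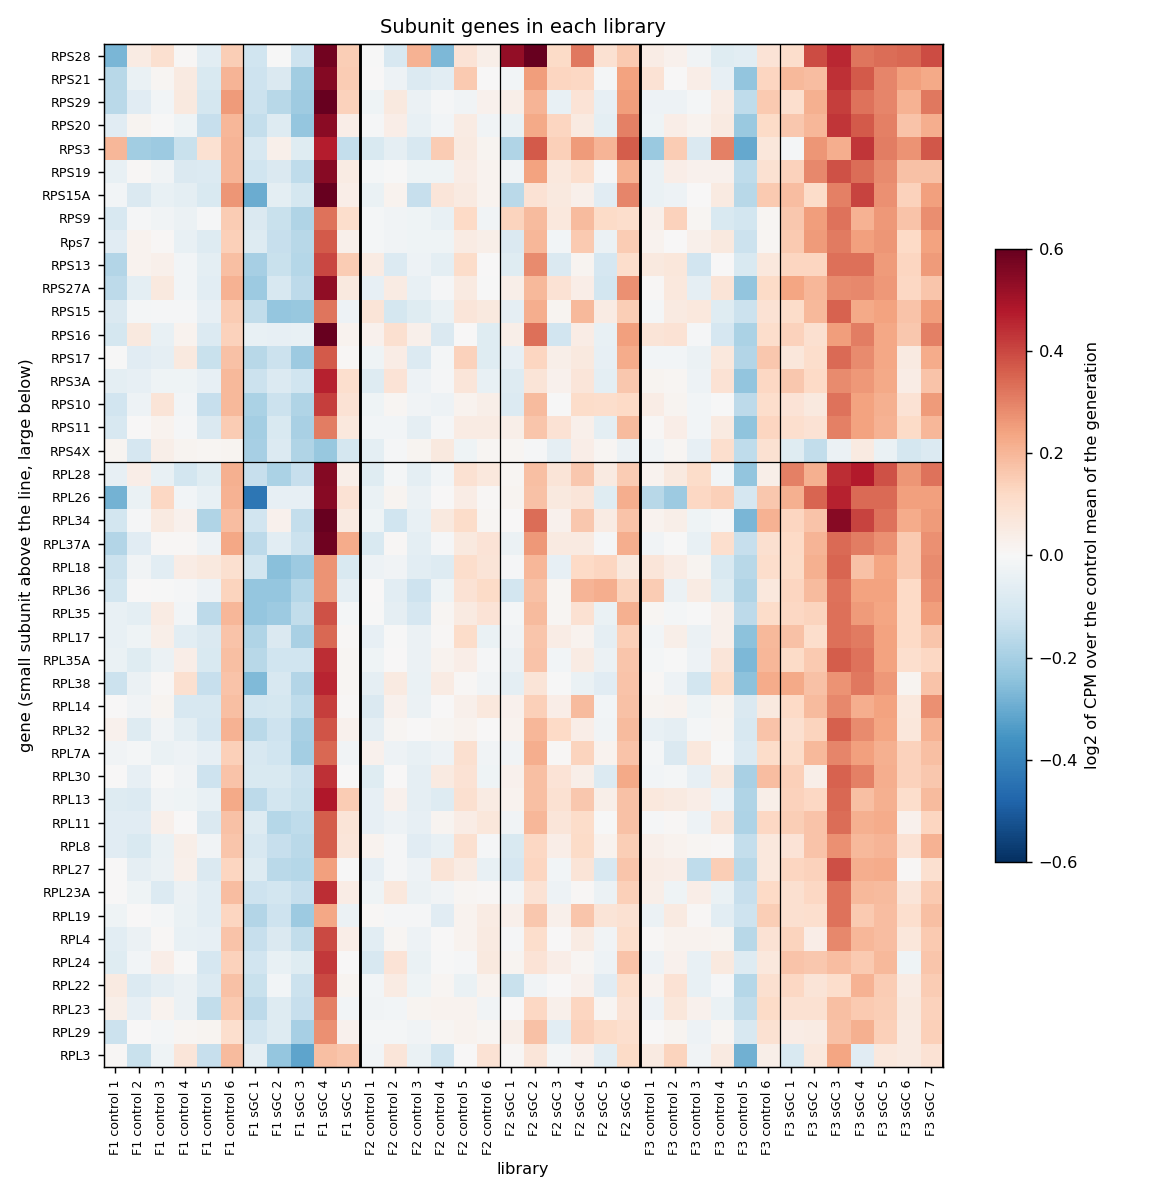
44 of the 46 subunit genes (rows) in each of the 36 libraries (columns), as log2 of its CPM over the control mean of its generation, with the colour scale ending at 0.6 in both directions. Whole columns share a colour: F3 sGC libraries, F1 sGC replicate 4 and F1 control replicate 6 are above the control mean over nearly the whole family, and RPS4X departs from the other rows.

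In F3, 32 of 50 members passed the threshold, where 5.04% of the 11359 genes tested did so. All 32 rose, against 2.17% of all genes tested that passed and were higher. 15 of 20 small-subunit genes, 17 of 26 large-subunit genes and 0 of 4 paralogs rose. The median change was 0.22 for small-subunit genes and 0.20 for large-subunit genes, beside 0.00 for all genes tested. 48 of 50 members had a value above 0, where 51.7% of all genes tested did. In 18 members, 10 of the small and 8 of the large subunit, all 7 sGC libraries were above all 6 controls, which held for 0.836% of all genes tested.

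RPS28, a small protein of the small subunit near the channel through which mRNA leaves, had the smallest p. Its level ran from 73.2 to 81.6 CPM (median 77.2) in F3 control and from 82.9 to 105 CPM (median 97.9) in F3 sGC libraries. No sGC library overlapped with control, and sGC replicate 1 was the lowest of its group by a wide gap. The log2 fold change was 0.34 (SE 0.0474, edgeR adjusted p = 0.00195).

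RPL28, a large-subunit protein, ran from 59.2 to 75.2 CPM (median 71.1) in control and from 80.9 to 97.1 CPM (median 87.5) in sGC libraries. The groups did not overlap, and the log2 fold change was 0.35 (SE 0.0539, edgeR adjusted p = 0.00295). Rps7, a small-subunit protein that can bind MDM2, ran from 235 to 268 CPM (median 260.3) in control and from 279.9 to 319 CPM (median 305) in sGC libraries, again without overlap. It rose by 0.23 (SE 0.0374, edgeR adjusted p = 0.00398).

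RPS9, a small-subunit protein that takes part in decoding accuracy, ran from 133 to 158 CPM (median 145) in control and from 160.7 to 180.4 CPM (median 171.3) in sGC libraries. It rose by 0.24 (SE 0.0412, edgeR adjusted p = 0.0054). RPS19, whose loss of 1 copy causes Diamond-Blackfan anaemia in people, ran from 172 to 204 CPM (median 195) in control and from 210.4 to 249 CPM (median 233) in sGC libraries, and rose by 0.26 (SE 0.0459, edgeR adjusted p = 0.00676). In both genes the lowest sGC library was above the highest control.

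RPS29, a zinc-binding protein of the small subunit, ran from 129.98 to 161 CPM (median 142) in control and from 155 to 192 CPM (median 177) in sGC libraries, so that the highest control and the lowest sGC library overlapped. It rose by 0.27 (SE 0.0511, edgeR adjusted p = 0.00827). RPL37A, RPS15 and RPL14 rose by 0.24, 0.22 and 0.20 (edgeR adjusted p from 0.00784 to 0.00902), and in each of them the groups did not overlap. RPS27A, which is made as a fusion with ubiquitin, rose by 0.22 (SE 0.0493, edgeR adjusted p = 0.0156). RPL26, a large-subunit protein, ran from 240.4 to 313 CPM in control and from 324 to 385 CPM in sGC libraries and rose by 0.31 (SE 0.0636, edgeR adjusted p = 0.0102). RPL11, which binds MDM2 together with 5S ribosomal RNA, passed narrowly (0.18, SE 0.0505, edgeR adjusted p = 0.0488).

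18 members did not pass in F3. RPL38, known for its part in translation of Hox mRNAs, had a log2 fold change of 0.21 (SE 0.0636, edgeR adjusted p = 0.0696), and RPL4, which lines the peptide exit tunnel, had 0.15 (SE 0.0444, edgeR adjusted p = 0.0526). RPS3, which lies where mRNA enters the small subunit, was covered by few reads, with 4.504 ± 0.725 CPM (SD, n = 6) in control and 5.43 ± 0.509 CPM (SD, n = 7) in sGC animals (0.27, SE 0.106, edgeR adjusted p = 0.154). RPL3, a protein close to the peptidyl transferase centre, ran from 386 to 517 CPM (median 486) in control and from 443 to 556 CPM (median 493) in sGC libraries. Its groups overlapped widely and the log2 fold change was 0.05 (SE 0.061, edgeR adjusted p = 0.671), the smallest among the 26 large-subunit genes. Only RPS4X (-0.06) and the paralog RPL3L (-0.22) had values below 0, and neither passed.

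**Figure D3:**
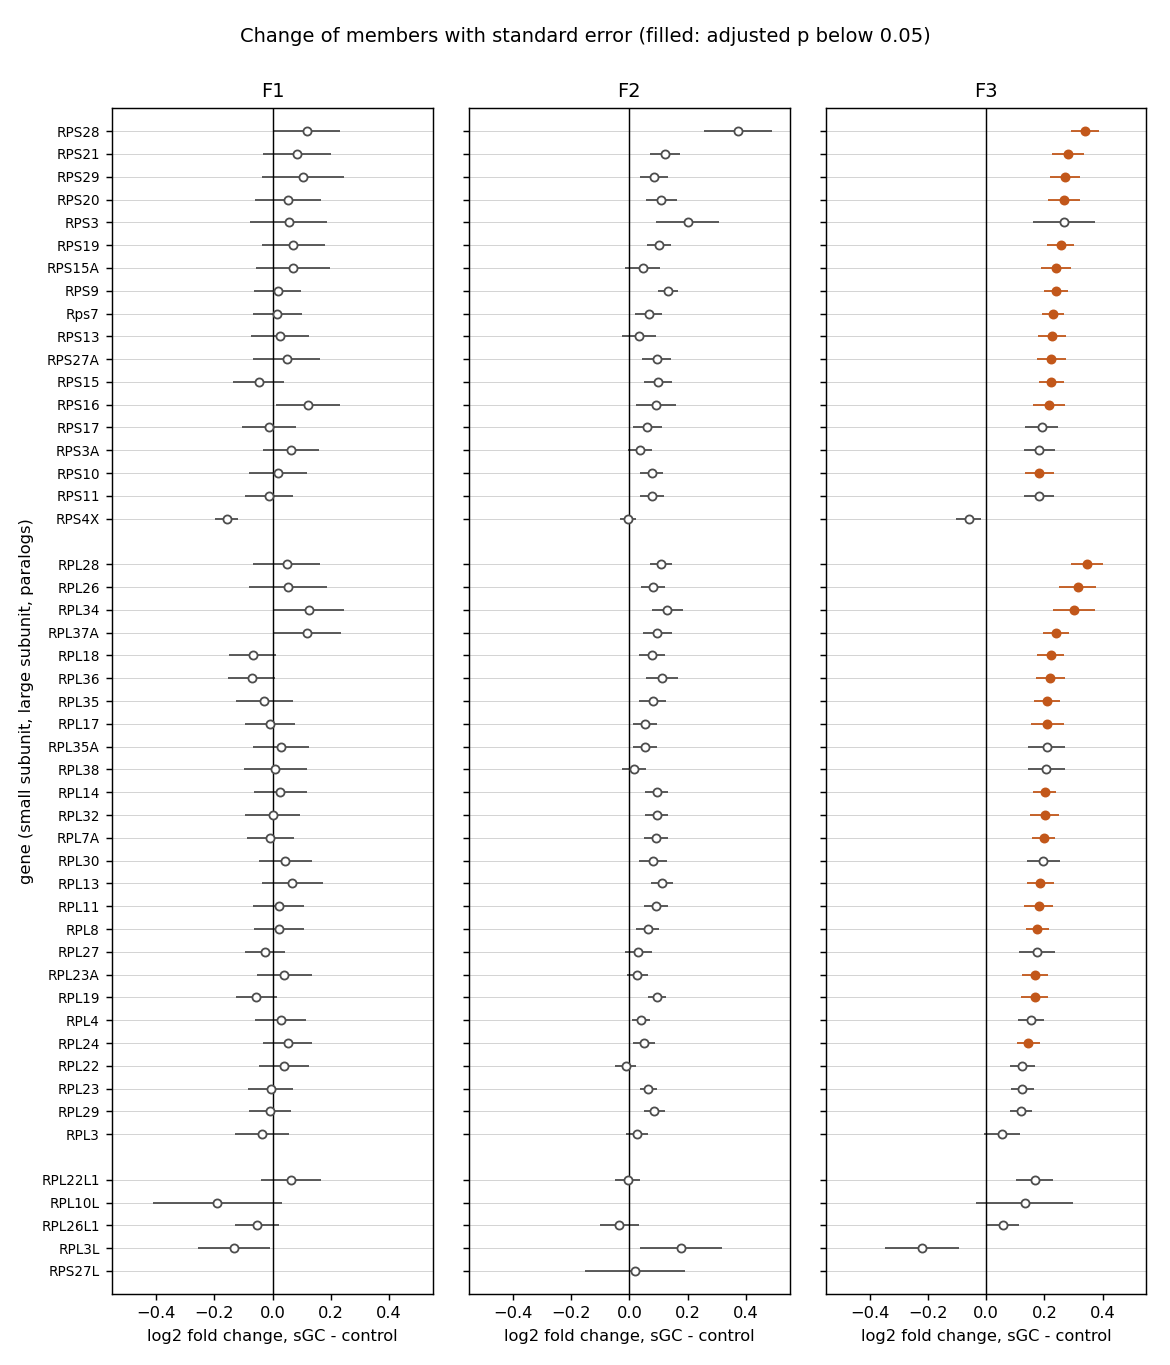
Log2 fold change of sGC against control (points) with its standard error (bars) for the members in F1, F2 and F3, apart from 2 genes that are not drawn, ordered within small-subunit genes, large-subunit genes and paralogs by the F3 value. Filled points passed the adjusted p threshold, and all of them lie in F3 to the right of 0. In F2 most points lie slightly to the right of 0, and F1 bars are wide.

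The count of 32 fell to 12 of 49 when all 3 generations were fitted together, where 2.93% of all genes tested passed. It was 26 without the libraries numbered 32 to 36, where 2.79% of all genes passed, with a median of 0.22. The lowest remaining sGC library then had 8602 CPM summed over the members, still above the highest control. In fits that left out 1 library each, the count fell to 22 without sGC replicate 5, where 2.54% of all genes passed. It rose to 41 without control replicate 6, where 4.12% of all genes passed. 48 of 50 members kept a value above 0 in each fit that left out 1 library. In counts, sGC replicate 5 was the library of its group closest to sGC replicates 1, 2, 3, 4 and 7.

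Astrocyte markers were also higher in F3 sGC animals. All 9 had values above 0 and 4 of them rose, namely GLUL (0.15), S100B (0.23), SLC1A2 (0.24) and Slc4a4 (0.24). Summed over the list, they ran from 9424 to 10406 CPM in F3 control and from 10636 to 12253 CPM in F3 sGC libraries. Of 11 hippocampal neuron markers, SNAP25 and SYT1 fell by 0.19 each and the others did not pass. None of the tested oligodendrocyte, microglia, endothelium, meningeal fibroblast, choroid plexus or blood markers passed in F3. Only 2 of 9 choroid plexus markers and 1 of 8 blood markers were tested in F3, which is too few to judge those contents. Among F3 sGC libraries, replicate 3 was highest for the ribosomal protein genes (9901 CPM) and lowest for the astrocyte markers (10636 CPM). The relation between these lists over libraries was not tested. The part of astrocyte or neuronal content in the F3 values of the ribosomal protein genes was not tested either.

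In F2, 0 of 50 members passed edgeR's threshold, as did 0% of the 11414 genes tested. DESeq2, limma voom and edgeR's likelihood ratio test also called 0 members, while they called 12, 0 and 6 genes of all. 15 members had an unadjusted p below 0.05, where 6.64% of all genes tested did, and all 15 had values above 0. 46 of 50 members had values above 0, beside 49.7% of all genes tested. The interquartile range of the members' log2 fold changes ran from 0.04 to 0.09, beside -0.04 to 0.05 for all genes tested.

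RPS9 had the smallest p in F2. It ran from 124 to 139 CPM (median 126) in control and from 134 to 145.7 CPM (median 139) in sGC libraries. The groups overlapped through control replicate 5, and the log2 fold change was 0.13 (SE 0.0342, unadjusted p = 0.00123 and edgeR adjusted p = 0.52). RPS28 ran from 42.3 to 58.9 CPM (median 51.6) in control and from 54.4 to 92.3 CPM (median 60.1) in sGC libraries, with the 2 highest values in sGC replicates 1 and 2. It had the largest log2 fold change of the family in F2 (0.37, SE 0.116, edgeR adjusted p = 0.678). RPL19, RPL13 and RPL28 had log2 fold changes of 0.09, 0.11 and 0.11, each with an edgeR adjusted p of 0.678 or more. RPS19 had 0.10, RPL11 0.09 and RPS27A 0.09 on the same scale. RPS4X, RPL22, RPL22L1 and RPL26L1 were the 4 members below 0, at -0.01, -0.01, -0.01 and -0.03.

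The highest F2 sums came from 3 sGC libraries. The summed level was 8339 CPM in sGC replicate 2, 8311 CPM in replicate 6 and 7917 CPM in replicate 4, whereas replicates 1, 3 and 5 (7379, 7577 and 7362 CPM) were within the control range. Without replicate 6, the library of F2 numbered between 32 and 36, 44 of 50 members were above 0 with a median of 0.05. Astrocyte markers summed to between 10695 and 12340 CPM in F2 control and between 10713 and 12904 CPM in F2 sGC libraries, with 0 of 9 past the threshold.

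**Figure D4:**
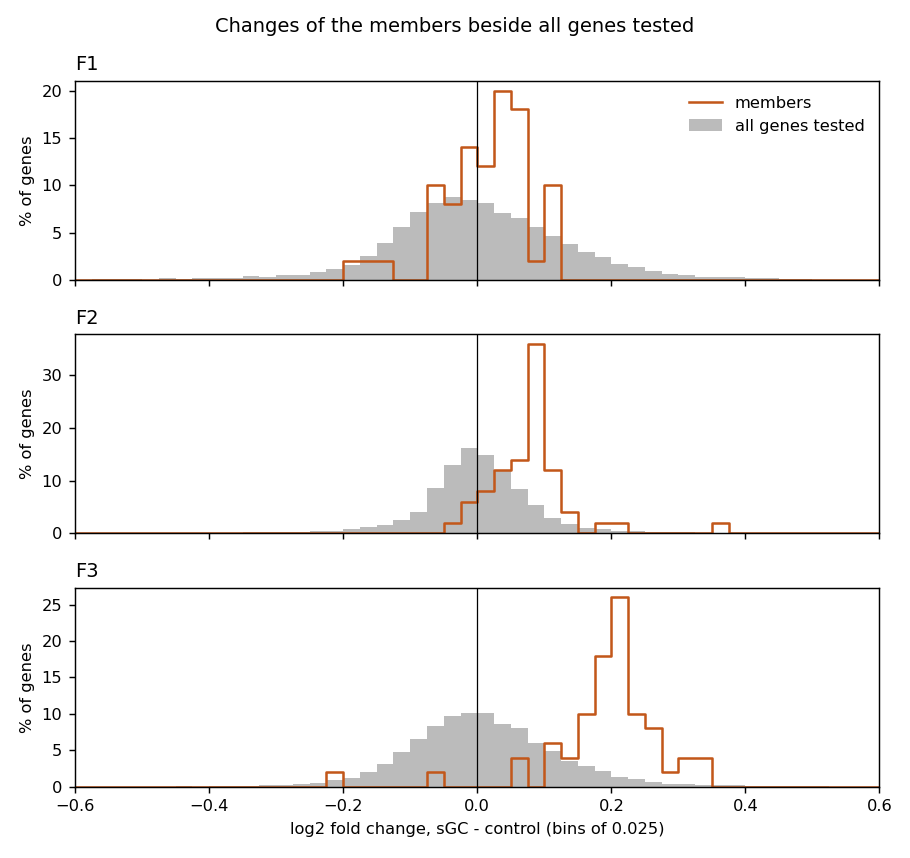
Distribution of log2 fold changes of sGC against control in each generation, in percent of genes per bin of 0.025, for all genes tested (grey bars) and for the 50 members (line). The members' median was 0.02 in F1, 0.08 in F2 and 0.20 in F3, while that of all genes tested was within 0.01 of 0 in each generation.

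In F1, 0 of 50 members passed edgeR's threshold, where 2.08% of the 11377 genes tested did. 1 member, RPS4X, had an unadjusted p below 0.05, where 19.6% of all genes tested did. DESeq2 and the likelihood ratio test called RPS4X as lower and limma voom called 0 members, where 5.78%, 5.26% and 1.65% of all genes tested were called. 31 of 50 members had values above 0, beside 48.3% of all genes tested.

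The direction in F1 turned on sGC replicate 4. Without it, 0 of 50 members were above 0 and the median was -0.09, and without replicates 4 and 5 together, 0 of 50 were above 0 and the median was -0.13. No member passed the threshold in either fit. RPS28 was at 72.8, 79.0, 72.4, 118 and 87.5 CPM in sGC replicates 1 to 5, beside 65.4 to 87.5 CPM (median 80.5) in control. Its log2 fold change was 0.12 (SE 0.114, edgeR adjusted p = 0.596) with all libraries and -0.078 without replicates 4 and 5. RPL37A was at 96.99, 103, 99.0, 161.8 and 126 CPM in sGC replicates 1 to 5, beside 95.8 to 127 CPM (median 107) in control. RPL34 was at 188.3, 208, 185, 319.8 and 212 CPM in sGC replicates 1 to 5, beside 180.2 to 232 CPM (median 205) in control, and RPS16 was at 27.3, 27.2, 27.3, 43.1 and 28.6 CPM, beside 26.1 to 30.9 CPM in control. In each of these 4 genes replicate 4 was the only sGC library above the whole control range by a wide margin, and no change passed the test (edgeR adjusted p from 0.567 to 0.609).

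RPL36 and RPL18 leaned the other way in F1. RPL36 was at 81.1, 81.0, 84.6, 115 and 91.8 CPM in sGC replicates 1 to 5, beside 88.3 to 105 CPM (median 94.9) in control (-0.07, SE 0.0804, edgeR adjusted p = 0.656). RPL18 was at 96.3, 87.4, 89.2, 125.3 and 97.7 CPM, beside 94.97 to 111 CPM (median 105) in control (-0.07, SE 0.0803, edgeR adjusted p = 0.671). Replicate 4 was again the highest library. Astrocyte markers summed to 9720, 10940, 10751, 15906 and 12860 CPM in F1 sGC replicates 1 to 5 and to between 8508 and 11105 CPM in control, so that replicate 4 was the highest library for both lists. All 9 astrocyte markers had values above 0 in F1, with a median of 0.24, and 1 of them, Slc4a4, rose (0.48). The microglia markers (356 CPM) and endothelium markers (685 CPM) of replicate 4 were also above those of the other F1 libraries. Meningeal fibroblast markers had values below 0 for all 9 genes tested in F1, with DCN and LUM past the threshold (log2 fold changes of -0.995 and -0.497), and in replicate 4 they summed to 1126 CPM, within the control range of 809 to 1369 CPM. The part of cell content in these values was not tested.

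RPS4X, the X-linked gene for a small-subunit protein, had values below control in all generations. In F1 it ran from 101.6 to 112 CPM (median 110.3) in control and was at 94.9, 103, 96.2, 93.3 and 101 CPM in sGC replicates 1 to 5. All 5 sGC libraries were below the control mean, and the groups overlapped through control replicate 2. The log2 fold change was -0.16 (SE 0.0391, unadjusted p = 0.00125), and the edgeR adjusted p of 0.0554 just missed the threshold. For RPS4X in F1, the change was past the threshold with DESeq2 (adjusted p = 0.00944), with the likelihood ratio test (adjusted p = 0.0222), with libraries scaled by total counts (adjusted p = 0.0316) and in the fit of all generations together (adjusted p = 0.0131), and the other alternatives for F1 gave edgeR or limma adjusted p from 0.0509 to 0.153, apart from fits that left out 1 library. In sGC replicate 4, where 49 members were above the control mean, RPS4X had its lowest F1 value. In F2 it ran from 98.8 to 107 CPM (median 103) in control and from 99.3 to 106 CPM (median 103) in sGC libraries, with a log2 fold change of -0.01 (SE 0.0277) whose sign turned when control replicate 4, sGC replicate 3 or sGC replicate 6 was left out. In F3 it ran from 94.5 to 113 CPM (median 104) in control and from 94.7 to 109 CPM (median 99.9) in sGC libraries, with a log2 fold change of -0.06 (SE 0.0426, edgeR adjusted p = 0.457). Of 49 members tested in all generations, it was the 1 member with a value below 0 in all 3, whereas 29 were above 0 in all 3, a number that was 0 without F1 sGC replicate 4.

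**Figure D5:**
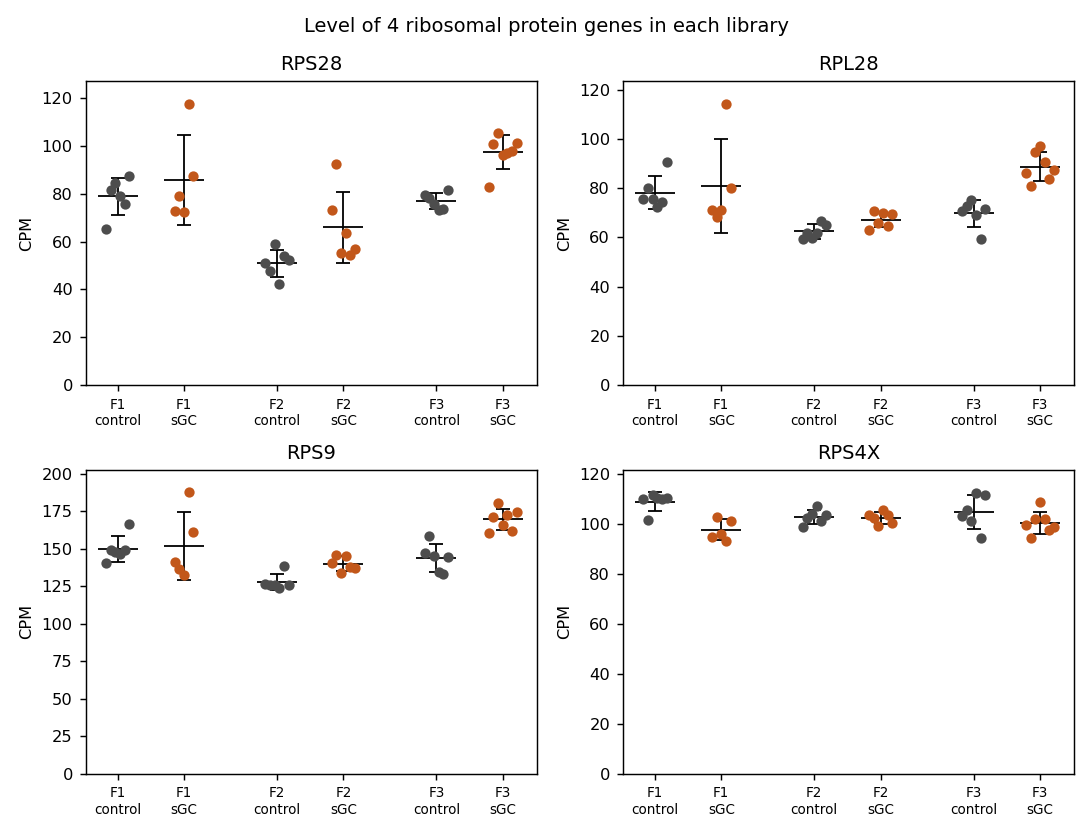
Level (CPM, scaled by TMM, axis from 0) of RPS28, RPL28, RPS9 and RPS4X in each library, by generation and treatment. Points are libraries, horizontal marks are means and bars are 1 SD. RPS28, RPL28 and RPS9 separate the groups in F3, F1 sGC replicate 4 is the highest F1 sGC point for these 3 genes, and RPS4X is lower in F1 sGC animals with an overlap.

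The paralogs were covered by fewer reads than most members and none passed in any generation. RPL22L1, a paralog of RPL22 that can replace it, had 55.8 ± 5.61 CPM (SD, n = 6) in F3 control and 62.7 ± 4.78 CPM (SD, n = 7) in F3 sGC animals, with a log2 fold change of 0.17 (SE 0.064, edgeR adjusted p = 0.14), and values of 0.06 in F1 and -0.01 in F2. RPL22 itself had 0.12 in F3 (SE 0.0422, edgeR adjusted p = 0.0977). RPL26L1 had log2 fold changes of -0.05, -0.03 and 0.06 in F1, F2 and F3, whereas RPL26 had 0.05, 0.08 and 0.31. RPL3L, known from skeletal and cardiac muscle, was at 1.74 to 3.49 CPM in F3 libraries, and its log2 fold change was -0.13, 0.18 and -0.22 in the 3 generations, each within 2 standard errors of 0. RPL10L, known from testis, was at 1.06 to 2.73 CPM in F1 and F3 libraries (-0.19, SE 0.220 in F1, and 0.13, SE 0.167 in F3). RPS27L was at 1.11 to 2.27 CPM in F2 libraries (0.02, SE 0.172). Ribosomal protein genes have many processed copies in mammalian genomes, and how reads that match several copies were counted is not given in the sources used here. The level of any 1 member, and of a paralog beside its parent gene, is uncertain for that reason. The library kit does not mark strand, so that reads from a member and from antisense or overlapping transcripts cannot be told apart.

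Whether the change of sGC against control differed between generations was tested as an interaction over all 36 libraries and 11390 genes, of which 49 were members. For F3 against F1, the difference was above 0 in 48 of 49 members, beside 48.1% of all genes tested, with a median of 0.17. 0 members and 0% of all genes passed edgeR's threshold. 13 of 49 members had an unadjusted p below 0.05, where 1490 of all 11390 genes did, and all 13 differences were above 0. DESeq2, limma voom and the likelihood ratio test called 0 members, while they called 67, 0 and 58 genes of all. RPL18 had the smallest p, with changes of 0.22 in F3 and -0.06 in F1 and a difference of 0.28 (SE 0.0876, edgeR adjusted p = 0.173). For RPL36 the difference was 0.28 (edgeR adjusted p = 0.198). Without F1 sGC replicate 4 the number of members past the threshold was 32, while 454 genes of all passed, and without all 5 libraries numbered 32 to 36 it was 39, with a median difference of 0.36, while 431 genes of all passed. A difference between F3 and F1 was thus not shown with all libraries, and its test turned on 1 F1 library.

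For F3 against F2, the difference was above 0 in 46 of 49 members, beside 51.2% of all genes tested, with a median of 0.12. 0 members and 0% of all genes passed, and DESeq2, limma voom and the likelihood ratio test called 0 members and 0 genes of all. 3 of 49 members had an unadjusted p below 0.05, where 1034 of all 11390 genes did. Of these 3 differences, 2 were above 0 and 1 was below, that of RPL3L (-0.40). RPL28 changed by 0.35 in F3 and 0.11 in F2, a difference of 0.24 (SE 0.112, edgeR adjusted p = 0.54). The count stayed at 0 without the libraries numbered 32 to 36. For F2 against F1, the difference was above 0 in 36 of 49 members, beside 48.5% of all genes tested, with a median of 0.05. 0 members passed, where 0.29% of all genes did. DESeq2, limma voom and the likelihood ratio test called 0 members, while they called 270, 31 and 168 genes of all. 1 member, RPS4X, had an unadjusted p below 0.05 (difference 0.14, SE 0.052, edgeR adjusted p = 0.149), where 1909 of all 11390 genes did. The 3 interactions share libraries with one another and are not independent.

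The members that rose in F3 were looked up in the other generations, whose libraries and controls are separate. All 32 had values above 0 in F2, where 79.8% of the 243 genes called higher in F3 and tested in F2 did. With all F1 libraries, 23 of the 32 had values above 0 in F1, where 89.5% of the 247 genes called higher in F3 did. Without F1 sGC replicate 4, 0 of the 32 had, and the share of the 247 genes in that fit is not given here. 44 of 49 members were above 0 in both F2 and F3.

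Gene products of the ribosome that the symbol rule leaves out were read from a separate list. In F3, RACK1, a scaffold protein bound to the small subunit, had 180.9 ± 7.60 CPM (SD, n = 6) in control and 207 ± 8.74 CPM (SD, n = 7) in sGC animals and rose by 0.19 (SE 0.0358, edgeR adjusted p = 0.00779). FAU, which encodes a small-subunit protein fused to a ubiquitin-like protein, rose by 0.17 (SE 0.0397, edgeR adjusted p = 0.0203). Neither passed in F1 or F2, with RACK1 at 0.03 and 0.01 and FAU at -0.01 and 0.13.

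Other parts of the translation machinery were read from further lists, and no test compared these lists with the ribosomal protein genes. Of 9 elongation and termination factors tested, 1 rose, namely EEF1G, the gamma subunit of the elongation factor that reloads eEF1A (526 ± 22.5 CPM in control, SD, n = 6, and 594 ± 31.7 CPM in sGC animals, SD, n = 7, log2 fold change 0.18, SE 0.0393, edgeR adjusted p = 0.0166). EEF1B2, another subunit of that factor, had 0.12 (edgeR adjusted p = 0.111), and EEF1A2, the neuronal form of eEF1A, had -0.04 (edgeR adjusted p = 0.684). Of 29 initiation factors, 0 rose and 2 fell, namely EIF2B2, a subunit of the exchange factor for eIF2 (-0.15), and EIF4G3, a scaffold of the cap-binding complex (-0.15). 10 of the 29 were above 0, with a median of -0.05. Of 53 ribosome biogenesis factors, 0 rose and the helicase DDX10 fell (-0.30, SE 0.0557, edgeR adjusted p = 0.00763), with 15 above 0 and a median of -0.04. None of 10 RNA polymerase I genes (median -0.07), 6 chaperones of ribosomal proteins (-0.01), 13 genes of the mTOR pathway and LARP1 (0.02) or 9 genes of ribosome quality control (-0.02) passed in F3. RNA polymerase I genes, which transcribe ribosomal RNA, summed to between 243 and 258 CPM in F3 control and between 233 and 239 CPM in F3 sGC libraries.

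Mitochondrial ribosomal proteins are made from nuclear genes and form the ribosome of mitochondria. Of 65 tested in F3, MRPL14 rose by 0.18, MRPL15 fell by 0.17 and the others did not pass, with a median of -0.01, and their sums overlapped (2773 to 3005 CPM in control and 2755 to 3005 CPM in sGC libraries). Of 57 respiratory chain subunits, ATP5A1 and UQCRC2 fell by 0.14 each and 0 rose, with a median of 0.01. In F2, none of the genes on these lists passed. In F1, the initiation factor EIF1B fell by 0.16 and the respiratory chain subunit NDUFS6 fell by 0.16, while the lists of elongation factors, biogenesis factors, RNA polymerase I, chaperones, the mTOR pathway, quality control and mitochondrial ribosomal proteins had 0 genes past the threshold.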

How the data were processed

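RNA-seq libraries from 36 hippocampi were analysed, grouped by their labels. The deposited values are whole-number counts of reads on each gene, not normalized, in 1 table per generation. TopHat2 and edgeR are among the tools named in the submitters' processing notes, and the counting tool and the treatment of multiply mapped reads are not given in the sources used here. Columns with the authors' own fold changes, p-values and dispersions, and the methylation tables of 36 bisulfite samples, which hold only the authors' comparison, were not used. Software was edgeR 4.0.16 with DESeq2 1.42.0 and limma 3.58.1 as alternatives, run in R 4.3.3, and matplotlib 3.10.9 in Python 3.11.15 for figures. Each table was filtered with filterByExpr, scaled by TMM and fitted whole with edgeR's quasi-likelihood test, and members were then read out. Interactions used 6 group means over all libraries. Alternatives were other tests, scalings, filters, a replicate block, a joint fit and fits without single libraries or those numbered 32 to 36. Code was tested on simulated counts. The members, lists and tests were chosen with earlier results of these data known. Named genes were those fixed by role, up to 10 called members by p, the 5 smallest p in each direction in each generation, the highest and lowest levels, called genes of other lists, and a few neighbours of these chosen after their values were seen, and a few single genes and 1 list are not reported here. All 51 symbols matched RefSeq's annotation of mCavPor4.1, another build than the one the study used, which gave names only. No 2 libraries of a group agreed within counting error, with chi-square per degree of freedom from 2.15 to 29.4 over 91 pairs. The smallest values all came from F3 sGC replicate 5, with replicates 4, 7, 3 and 1 (2.15, 2.31, 2.73 and 2.84). It was at 3.29 with replicate 2 and at 11.8 with replicate 6. The reason was not tested, so the independence of this library from the others of its group is uncertain. At 13507449 to 19767033 reads counted per library, genes of a few CPM, such as RPL3L, have wide errors.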

Additional observations from a re-analysis of the deposited data

Results flagged for a closer look

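In 30 groups tested for 1 library far from the others, where chance flags about 1 group in 20, 6 were found. The summed level of the members in F1 control replicate 6 was 9305 CPM, far above the other 5 controls. The same library was far above its group for RPS9, at 166.5 CPM. For RPS4X, F1 control replicate 2 was far below its group, at 101.6 CPM. For RPL28, F1 sGC replicate 4 was far above the other 4 sGC libraries, at 114 CPM. F2 control replicate 5 was far above its group for RPS9, at 139 CPM. F3 sGC replicate 1 was far below the other 6 sGC libraries for RPS28, at 82.9 CPM, and still above every F3 control.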

How the results depend on the processing

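The number of F3 members past the threshold was 32, where 5.04% of all genes tested passed. Brackets give that share of all genes for the other fits. Other tests, scalings and filters gave between 31 and 42 members (4.71% to 8.31%). There were 12 with a replicate block (1.51%), 12 when all generations were fitted together (2.93%) and 26 without libraries 32 to 36 (2.79%). When single libraries were left out, the number ran from 22 to 41 (2.54% to 5.63%). The labels do not say whether replicate numbers pair the animals. Of 17 correlations of deviations between same-numbered libraries, from -0.387 to 0.317, 3 were over 0.1. These correlations cannot exclude a pairing, since the deviations also hold differences between single libraries. In F1, 1 member passed with the likelihood ratio test, DESeq2, total-count scaling and the joint fit, and 0 under the others. Members above 0 in F1 numbered 0 without libraries 32 to 36, and from 0 to 41 when single libraries were left out, with medians from -0.09 to 0.07. Without libraries 32 to 36, RPS28 in F1 reversed to -0.078, RPL34 in F1 to -0.072 and RPL37A in F1 to -0.11. Without those libraries, the members past the threshold were 1 for F2 against F1 and 39 for F3 against F1, while 68 and 431 genes of all passed. For F3 against F1 they were from 0 to 32 when single libraries were left out. The cause of these changes was not tested. F2 had 0 under every alternative run. Depth limits RPL3L, RPL10L, RPS27L and RPS3.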
